A study of Mus musculus with 8 samples.

Results

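The 8 genes of the urea cycle, out of 22059 genes listed in the series, were followed through mouse liver development. They were chosen by function, with earlier results of these data known. Nags, Cps1, Otc, Ass1, Asl and Arg1 encode the enzymes, and Slc25a15 and Slc25a13 encode the mitochondrial carriers. Poly(A)-selected RNA was sequenced from livers of wild-type FVB mice (FVB/NJ in the methods of the study), an inbred strain, at embryonic day 18 (E18), postnatal days 14 and 28 (P14 and P28) and in adults of 3 months. Each of the 4 stages had 2 samples, none carried a transgene or an engineered allele, and none was treated. The methods name males for the adult livers, and the sex at the other stages and the number of animals behind each sample were not given in the sources used here. The question put to the genes was how their transcript levels changed from stage to stage.

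The urea cycle turns ammonia, which is toxic, into urea, and in mammals the complete cycle runs mainly in hepatocytes, most of all in those near the portal vein. The first steps take place in mitochondria, where NAGS makes N-acetylglutamate, the obligate activator of CPS1. CPS1 joins ammonia and bicarbonate into carbamoyl phosphate, and OTC combines this with ornithine to give citrulline. In the cytosol ASS1 joins citrulline to aspartate, ASL splits the product into arginine and fumarate, and ARG1 splits arginine into urea and ornithine. The SLC25A15 carrier exchanges ornithine and citrulline across the inner mitochondrial membrane, and SLC25A13 (citrin) exports aspartate in exchange for glutamate. Inherited loss of these proteins causes urea cycle disorders or related diseases, most of which raise blood ammonia.

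All 8 genes were present in every library and passed the filter on low counts, which left 17081 genes. Reads counted on genes ranged from 68154675 to 106055723 a library, and the fewest reads on any member were 733, for Ass1 in an E18 library. Hepatocyte markers were present at every stage, with a summed level of 45864 to 48922 reads per kilobase of transcript, divided by depth (RPKM), at E18 for the 11 of 12 listed genes that were matched. Their sum was 149338 to 150079 RPKM at P14, 103554 to 106060 at P28 and 70775.5 to 81532.2 in adult. Much of this sum was Alb, with means of 64735 RPKM at P14 and 22579 in adult, and Ahsg, with 32766 and 6930. On the TMM scale 5 of the 11 rose and 4 fell from P14 to P28, with a median log2 fold change of -0.22. From P28 to adult 1 rose and 2 fell, with a median of -0.04. Blood cell transcripts differed far more between stages. The summed level of 11 matched erythroid markers lay between 10181 and 12889 RPKM at E18, and by P14 it was 112 to 123, by P28 54.9 to 57.0 and in adult 45.8 to 48.1. The 10 leukocyte and progenitor markers summed to between 1889 and 2303 RPKM at E18 and to between 3.83 and 7.38 in adult, where Camp was at 0 in both libraries and Mpo, Ltf and the erythroid Hemgn in replicate 1. From E18 to adult on the TMM scale, 2 of 6 Kupffer cell markers rose and 4 fell, as did 1 and 5 of 6 endothelial, 1 and 4 of 6 stellate cell and 1 and 4 of 6 bile duct markers. In bulk tissue, fewer cells of a type and less RNA per cell cannot be told apart.

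Reads from the sex chromosomes also separated duplicates. Xist, the transcript that silences the inactive X chromosome, had 64.0 and 6.75 RPKM in the E18 duplicates, 0.0248 and 25.6 RPKM in those of P14, and at most 0.0425 RPKM in the other libraries. Y-linked Ddx3y had no reads in E18 replicate 1 and 0.997 RPKM in P14 replicate 2, against 8.72 to 11.1 RPKM in the other 6 libraries. The count of members that passed the test was therefore also made without E18 replicate 1 and P14 replicate 2. That left E18 and P14 without a duplicate, and the E18 library that was kept still had Xist at 6.75 RPKM. The libraries left were thus not alike in these reads, and an effect of sex was not tested.

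Every urea cycle transcript rose between E18 and P14, by 3.86-fold (Slc25a13) to 25.1-fold (Arg1) on depth-corrected counts scaled by TMM, although Nags and Slc25a13 turned downward when libraries were scaled to hepatocyte markers. TMM (trimmed mean of M-values) sets a factor for each library on the premise that most genes do not change. All 8 passed the edgeR quasi-likelihood test at a false discovery rate below 0.1, and all 8 rose over 3-fold. Among all genes tested, 38.2% rose, 13.8% rose over 3-fold and 39.3% fell in this interval. The median log2 fold change of the 8 was 3.42, against -0.03 over all genes. Without E18 replicate 1 and P14 replicate 2 the count was again 8.

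From E18 to adult all 8 again rose over 3-fold on the TMM scale, with a median log2 fold change of 4.03 against -0.11 over all genes, while Nags and Slc25a13 were at or below 0 on the hepatocyte marker scale. In this comparison 39.5% of all genes rose, 16.8% rose over 3-fold and 43.8% fell. The count was again 8 without E18 replicate 1 and P14 replicate 2. The share of all gene reads that fell on the 8 members was 0.0887% ± 0.0028 (SD, n = 2) at E18 and then 0.578% ± 0.066, 0.615% ± 0.0098 and 0.842% ± 0.054 at the later stages in turn. The part of the E18 to adult log2 change that was reached by P14 ran from 80.7% for Arg1 to 96.6% for Slc25a13 on the TMM scale.

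**Figure D1:**
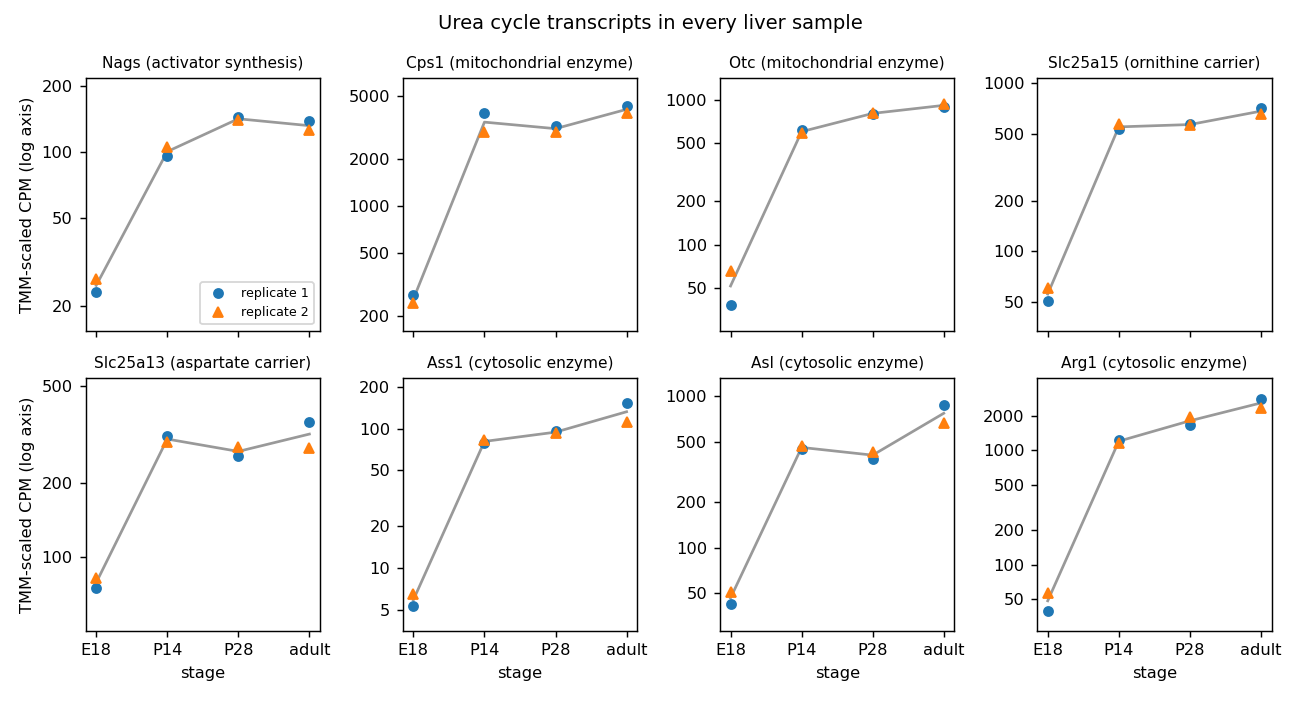
CPM after TMM scaling (log axis) of each urea cycle transcript at the 4 stages, with a circle for replicate 1, a triangle for replicate 2 and a line through the mean. In every panel both E18 points lie below all later points, as for Arg1, with 39.4 and 56.8 at E18 and at least 1167 later.

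The sequences before the start sites are shown because the transcripts moved together. RefSeq promoters (GRCm38.p6) were matched for Nags, Otc, Ass1, Slc25a13 and Slc25a15, the last with 2 start sites. Cps1, Asl and Arg1 were not matched. The windows of Slc25a15 are described but not printed. For the other genes the 250 bases before the RefSeq start are given 5′ to 3′ on the strand of the gene, with motif matches in capitals. Gene positions given below are those of GENCODE, which can differ from RefSeq. By these positions the Ass1 window runs into the gene, and the second Slc25a15 window lies within its gene.
Nags (chr11:102145263-102145512, plus strand): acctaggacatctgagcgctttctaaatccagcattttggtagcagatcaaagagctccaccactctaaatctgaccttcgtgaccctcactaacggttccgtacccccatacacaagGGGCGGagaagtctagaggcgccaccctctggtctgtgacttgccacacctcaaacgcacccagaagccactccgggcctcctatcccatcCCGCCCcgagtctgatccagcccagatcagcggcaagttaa
Otc (chrX:10252055-10252304, plus strand): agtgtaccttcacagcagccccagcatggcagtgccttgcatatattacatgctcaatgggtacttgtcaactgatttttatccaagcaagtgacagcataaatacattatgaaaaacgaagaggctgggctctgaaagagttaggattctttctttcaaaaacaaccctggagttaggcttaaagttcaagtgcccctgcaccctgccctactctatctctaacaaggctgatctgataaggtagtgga
Ass1 (chr2:31470020-31470269, plus strand): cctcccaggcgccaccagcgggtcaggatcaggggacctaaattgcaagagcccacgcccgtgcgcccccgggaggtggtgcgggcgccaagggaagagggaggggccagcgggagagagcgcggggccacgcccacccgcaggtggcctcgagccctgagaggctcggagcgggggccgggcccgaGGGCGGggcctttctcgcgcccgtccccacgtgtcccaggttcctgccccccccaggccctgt
Slc25a13 (chr6:6217174-6217423, minus strand): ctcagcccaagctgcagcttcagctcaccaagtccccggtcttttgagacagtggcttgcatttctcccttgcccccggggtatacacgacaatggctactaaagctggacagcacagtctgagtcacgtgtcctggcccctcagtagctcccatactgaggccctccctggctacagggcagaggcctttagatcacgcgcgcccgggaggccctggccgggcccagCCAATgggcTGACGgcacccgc
These windows differ widely in base composition. GC content was 43.6% for Otc, 55.6% for Nags, 62.8% for Slc25a13 and 75.6% for Ass1, and 57.6% and 80.4% for the 2 starts of Slc25a15, against a median of 52.4% over 32851 promoters. The GC box GGGCGG, searched on both strands like all motifs here, was found at 2 places in Nags and at 1 place in Ass1. In the 2 starts of Slc25a15 it was found at 2 and 5 places, of which 2 overlap. It occurs in 32.7% of all promoters.

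The Slc25a13 window held CCAAT, present in 33.8% of all promoters, and TGACG, the core of the cAMP response element, present in 17.8%. Members did not share a motif across all windows. No match of any kind was found in Otc. TATAAA (12.4% of all promoters), TTGCNNAA of C/EBP factors (9.56%), TGACGTCA, which contains TGACG (1.55%), the glucocorticoid response element (0.387%), CNAAGTCCA of HNF4 (0.901%) and TGTTTAC of FOXA factors (3.17%) were in none of the 6 windows.

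Nags lies at chr11:102145513-102149477 (GRCm38, plus strand, 7 exons). It supplies the activator of the cycle and had one of the smaller changes to P14. On the TMM scale Nags had 23.1 and 26.4 CPM (read counts corrected for library size and the TMM factor) in the E18 duplicates, 95.3 and 105.3 by P14, then 143.8 and 139.0 by P28 and lastly 137.8 and 125.3 in adult. No library of a later stage fell to the E18 level, and both P28 libraries lay above both P14 libraries. The rise to P14 was 2.02 on the log2 scale (SE 0.11, adjusted p = 2.6e-07). A smaller rise followed to P28, of 0.50 (SE 0.10, adjusted p = 0.0041). From P28 to adult the difference was -0.10 (SE 0.10, adjusted p = 0.55). On the hepatocyte marker scale the first interval gave -0.38 (SE 0.12, adjusted p = 0.01), so that its direction depends on the scaling. Of the 100-base windows in the Nags transcript, 17.9% also occur in Gm11586, an antisense gene, and strand was not given for the libraries.

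Cps1, the entry enzyme, lies at chr1:67123026-67231259 (plus strand, 38 exons). Its values on the TMM scale were 269 and 240 CPM in the E18 duplicates, 3901 and 2937 by P14, then 3241 and 2973 by P28 and lastly 4329 and 3920 in adult. The P14 duplicates enclosed both P28 values, whereas both adult libraries lay above every earlier one. From E18 to P14 Cps1 rose by 3.75 on the log2 scale (SE 0.17, adjusted p = 1.3e-07), a 13.4-fold change. The later differences were -0.14 (SE 0.16, adjusted p = 0.5) to P28 and 0.41 (SE 0.16, adjusted p = 0.12) to adult, and neither passed the test. Relative to hepatocyte markers the rise to P14 was 1.35 (SE 0.17, adjusted p = 9e-06).

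Otc makes citrulline and is the only member on the X chromosome (chrX:10252305-10321024, plus strand, 10 exons). It had 38.3 and 65.6 CPM in the E18 duplicates, 612 and 590 by P14, then 796 and 809 by P28 and lastly 892 and 932 in adult. The E18 duplicates were the most unequal of all 8 members at that stage, and the lower value came from the library with the high Xist level. The autosomal members were also lower in that library, such as Arg1 at 39.4 against 56.8 CPM, except Cps1 at 269 against 240. Whether the sex of the animals bears on this was not tested. Duplicates at the later stages lay close together and each stage was above the one before. The rise to P14 was 3.53 on the log2 scale (SE 0.23, adjusted p = 9.6e-07). Neither the difference of 0.42 to P28 (SE 0.21, adjusted p = 0.13) nor that of 0.18 to adult (SE 0.21, adjusted p = 0.61) passed the test.

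Slc25a15, the ornithine carrier, lies at chr8:22375551-22398597 (minus strand, 7 exons). It had 50.3 and 60.7 CPM in the E18 duplicates, 531 and 569 by P14, then 572 and 565 by P28 and lastly 713 and 653 in adult. The P14 and P28 libraries overlapped, and both adult libraries were above them. Its rise to P14 was 3.31 on the log2 scale (SE 0.13, adjusted p = 5e-08). The differences of 0.05 to P28 (SE 0.12, adjusted p = 0.77) and 0.27 to adult (SE 0.12, adjusted p = 0.18) did not pass.

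Slc25a13, the aspartate carrier, lies at chr6:6041218-6217173 (minus strand, 18 exons) and, with Nags, had the smallest changes to P14. It had 75.1 and 82.3 CPM in the E18 duplicates, 312 and 295 by P14, then 259 and 282 by P28 and lastly 358 and 279 in adult. From P14 on the libraries lay between 259 and 358 CPM, and the lower adult value lay within the range of the P28 duplicates. On the TMM scale it rose to P14 by 1.95 on the log2 scale (SE 0.13, adjusted p = 1.5e-06), whereas the hepatocyte marker scale gave -0.45 (SE 0.14, adjusted p = 0.0093). The later differences on the TMM scale were -0.17 (SE 0.13, adjusted p = 0.32) and 0.24 (SE 0.13, adjusted p = 0.27).

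Ass1, which joins citrulline to aspartate, lies at chr2:31470207-31520672 (plus strand, 16 exons). It had 5.28 and 6.45 CPM in the E18 duplicates and reached 78.9 and 82.9 by P14, then 95.8 and 92.8 by P28 and lastly 152.8 and 111.5 in adult. Each stage lay above the one before, and the adult duplicates were the most spread. Ass1 rose to P14 by 3.79 on the log2 scale (SE 0.17, adjusted p = 9.9e-08). To P28 the difference was 0.22 (SE 0.15, adjusted p = 0.25), and to adult it rose by 0.49 (SE 0.15, adjusted p = 0.06).

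Ass1 has a near-identical processed pseudogene, Gm5424, on another chromosome (chr10:62071123-62072362, plus strand, 1 exon). The copy differs from the 1239 coding bases of Ass1 at 6 places, T399C, T429C, A520T, G656C, T1011C and C1143T, counted from the start codon with the Ass1 base first, which leaves 99.52% identical. Of the 100-base windows in the Ass1 transcript, 39.0% occur unchanged in Gm5424, so reads from these could have been assigned to either gene or left out. Coding bases 354 to 444 show how little separates them, with the differing bases in capitals.
Ass1: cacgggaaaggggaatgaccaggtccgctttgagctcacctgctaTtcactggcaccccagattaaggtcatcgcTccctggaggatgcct
Gm5424: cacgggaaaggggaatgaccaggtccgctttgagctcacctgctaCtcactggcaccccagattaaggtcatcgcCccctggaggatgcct
The table listed 410 and 33 reads under Gm5424 at E18, and 248 to 406 in each later library. At E18 the copy held 35.9% and 4.01% of the reads of both genes together, and later between 3.34% and 5.20%. With the reads of both added, the E18 libraries had 8.24 and 6.72 CPM and the P14 libraries 81.6 and 85.8 CPM, so the gap between these stages remained and its log2 size became 3.48.

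Asl, which releases arginine, lies at chr5:130011258-130029247 (minus strand, 16 exons). It had 42.5 and 50.8 CPM in the E18 duplicates, 448 and 469 by P14, then 387 and 429 by P28 and lastly 872 and 670 in adult. Unlike the P28 values, which lay below those of P14, both adult values lay well above every earlier one. Asl rose to P14 by 3.30 on the log2 scale (SE 0.16, adjusted p = 1.7e-07). To P28 the difference was -0.17 (SE 0.15, adjusted p = 0.38), and from P28 to adult it rose by 0.92 (SE 0.15, adjusted p = 0.0047), or 1.89-fold.

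Arg1, the enzyme that releases urea, lies at chr10:24915221-24927484 (minus strand, 8 exons) and had the largest change of the 8 to P14 and from E18 to adult. It had 39.4 and 56.8 CPM in the E18 duplicates, 1245 and 1167 by P14, then 1685 and 1957 by P28 and lastly 2853 and 2371 in adult. The duplicates of the 4 stages did not overlap, and every stage lay above the one before. Its log2 rise was 4.65 to P14 (SE 0.21, adjusted p = 1.1e-07), 0.59 to P28 (SE 0.18, adjusted p = 0.026) and 0.52 to adult (SE 0.18, adjusted p = 0.093). Over the whole course Arg1 rose 54.3-fold on the TMM scale. Relative to hepatocyte markers the E18 to adult log2 change was 3.34 (SE 0.22, adjusted p = 2.9e-08).

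On the TMM scale the changes of the members after P14 were at most 0.92 in log2, against at least 1.95 before it. Between P14 and P28, around weaning, 2 of 8 rose, Nags and Arg1, and 0 fell, where 25.2% of all genes rose and 28.6% fell, so that the share of members that rose lay at the background. The members' median log2 fold change was 0.13, against -0.05 over all genes. In the same interval 9 of 11 erythroid, 9 of 10 leukocyte and progenitor, 6 of 6 endothelial, 5 of 6 stellate cell and 5 of 6 bile duct markers fell, and their part was not tested. The call for Arg1 was lost without P14 replicate 2 (adjusted p = 0.14) or P28 replicate 2 (adjusted p = 0.15), and the count was 3 without E18 replicate 1 and P14 replicate 2.

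From P28 to adult 3 of 8 rose, the cytosolic enzymes Asl, Ass1 and Arg1, and 0 fell, where 7.94% of all genes rose and 13.2% fell. The median over the members was 0.34 and over all genes 0. Kupffer cell markers fell in the same interval in 6 of 6 cases, with a median of -1.04, as did 5 of 6 endothelial and 4 of 6 stellate cell markers, and their part was not tested. Ass1 and Arg1 lay near the threshold. The count was 1 without P28 replicate 1, P28 replicate 2 or adult replicate 1, and 2 without adult replicate 2, and Asl was the only member to pass in all of these. It was 4 without E18 replicate 1 and P14 replicate 2.

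**Figure D2:**
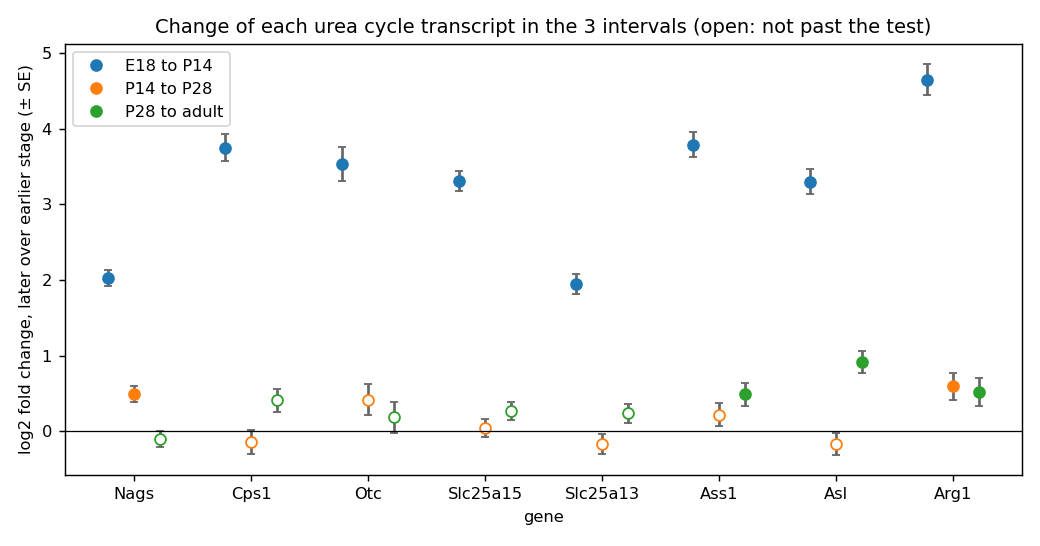
Log2 fold change of each urea cycle gene in the 3 intervals on the TMM scale, with bars of 1 SE and open circles for changes that did not pass the edgeR test. The E18 to P14 changes lie between 1.95 and 4.65, and the later ones between -0.17 and 0.92. The positive first-interval values of Nags and Slc25a13 turn negative on the hepatocyte marker scale.

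The size of the rise depended on how the libraries were put on a common scale. TMM factors were 1.60 and 1.54 at E18 and 0.847 to 0.888 later. With library size alone, the median log2 fold change from E18 to adult was -0.95 over all genes and 3.18 over the members. With the deposited RPKM values tested by limma these were -0.78 and 3.15. All 8 passed the test as rises under both.

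Scaling each library to 11 hepatocyte markers asks how the cycle changed beside these transcripts. On the TMM scale they rose from E18 to P14 in 11 of 11 cases, by a median log2 fold change of 2.24. The markers did not move evenly, and from E18 to adult Alb rose by 0.59 and Apoa2 by 3.33. On their own scale 3 of 11 rose and 3 fell from E18 to P14, and 2 rose and 3 fell from E18 to adult. How far small changes on this scale depend on the markers chosen was not tested. All genes then had a median of -2.43 from E18 to P14 and -2.51 from E18 to adult. On this scale 6 members rose from E18 to P14, where 5.75% of all genes did, and 2 fell, Nags and Slc25a13, where 89.2% of all genes did. From E18 to adult 6 rose, against 7.92% of all genes, and 1 fell, against 87.3%. The one that fell was Slc25a13, by 0.40 on the log2 scale (SE 0.14, adjusted p = 0.018), and Nags was at -0.0027 (SE 0.12, adjusted p = 0.98). The remaining changes on this scale were 1.20 for Slc25a15, 1.61 for Cps1, 1.63 for Asl, 1.71 for Otc, 2.07 for Ass1 and 3.34 for Arg1. The part of blood cell transcripts in the differences between the scales was not tested.

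**Figure D3:**
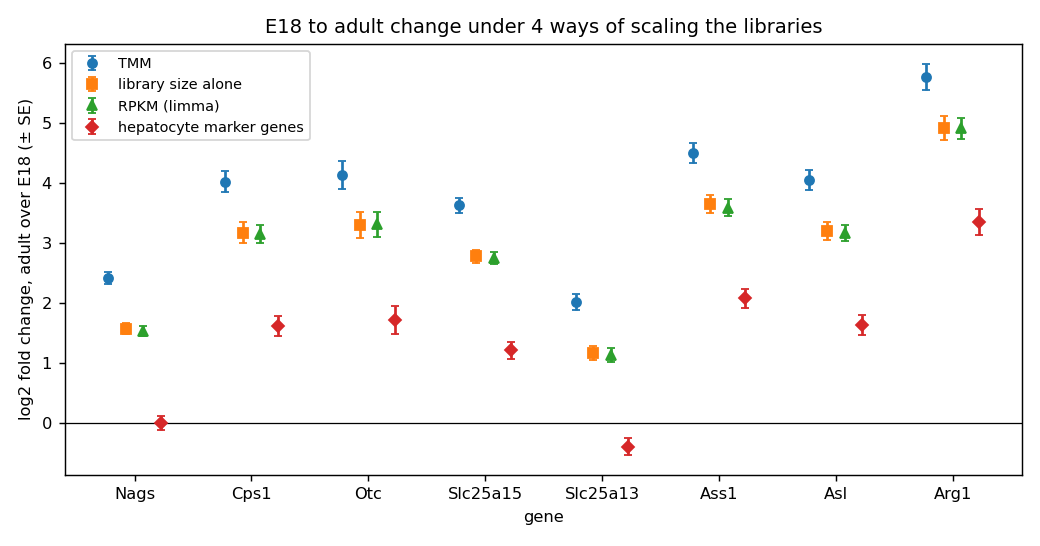
Log2 fold change from E18 to adult of each urea cycle gene (bars, 1 SE) under 4 scalings of the libraries. Another scaling shifts all genes by about the same amount, so that Arg1 goes from 5.76 under TMM to 3.34 under hepatocyte marker scaling, Slc25a13 from 2.02 to -0.40 and Nags from 2.41 to -0.0027.

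Levels of different genes were compared per length of transcript, as RPKM. At E18 Cps1 led with 79.3 ± 7.70 RPKM (SD, n = 2), followed by Arg1 at 47.6 ± 11.4, Asl at 44.6 ± 4.85, Slc25a13 at 36.9 ± 1.75, Otc at 33.5 ± 11.9, Slc25a15 at 23.5 ± 2.69, Nags at 17.1 ± 1.31 and Ass1 at 5.26 ± 0.650. The order of Arg1 and Asl differed between the E18 libraries, as did that of Otc and Slc25a13. Within each E18 library Otc lay below Arg1 and Asl and above Slc25a15, although the duplicates of Otc overlapped with those of Arg1, Asl and Slc25a15. At P14 Asl (243 ± 5.81 RPKM) lay above Otc (215 ± 7.37), and at P28 Otc (280 ± 6.91) lay above Asl (211 ± 18.3), with no overlap at either stage. In adult the order was Arg1 at 1412 ± 155 RPKM, Cps1 at 701 ± 34.4, Asl at 402 ± 66.4, Otc at 322 ± 16.6, Slc25a15 at 158 ± 6.55, Slc25a13 at 81.4 ± 12.7, Ass1 at 64.6 ± 13.0 and Nags at 49.8 ± 2.28. Only Slc25a13 and Ass1 overlapped there, and within each adult library Slc25a13 was the higher. Of the 100-base windows, 39.0% in Ass1 and 17.9% in Nags also occur in another gene, and 0% in the other members. How reads from such windows were counted was not given, so the ranks of Ass1 and Nags may depend on it.

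Arg1 and Cps1 overlapped at P14, at 660 ± 35.9 and 588 ± 122 RPKM, and Arg1 was the higher of these at P28, at 974 ± 116 against 521 ± 24.6. The RPKM ratio of Arg1 to Cps1 within a library was 0.467 and 0.754 in the E18 duplicates, 1.02 and 1.27 by P14, then 1.66 and 2.10 by P28 and lastly 2.10 and 1.93 in adult. The ratio was below 1 in both E18 libraries and above 1 in the other 6. A ratio within a library does not depend on the scaling between libraries. That of Slc25a15 to Slc25a13, the carriers, went from 0.636 ± 0.043 at E18 to 1.64 ± 0.15, 1.90 ± 0.13 and 1.96 ± 0.22 at the later stages. Cps1 to Nags, enzyme to activator, went from 4.66 ± 0.81 to 15.5 ± 4.1, 9.87 ± 0.37 and 14.1 ± 0.045.

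**Figure D4:**
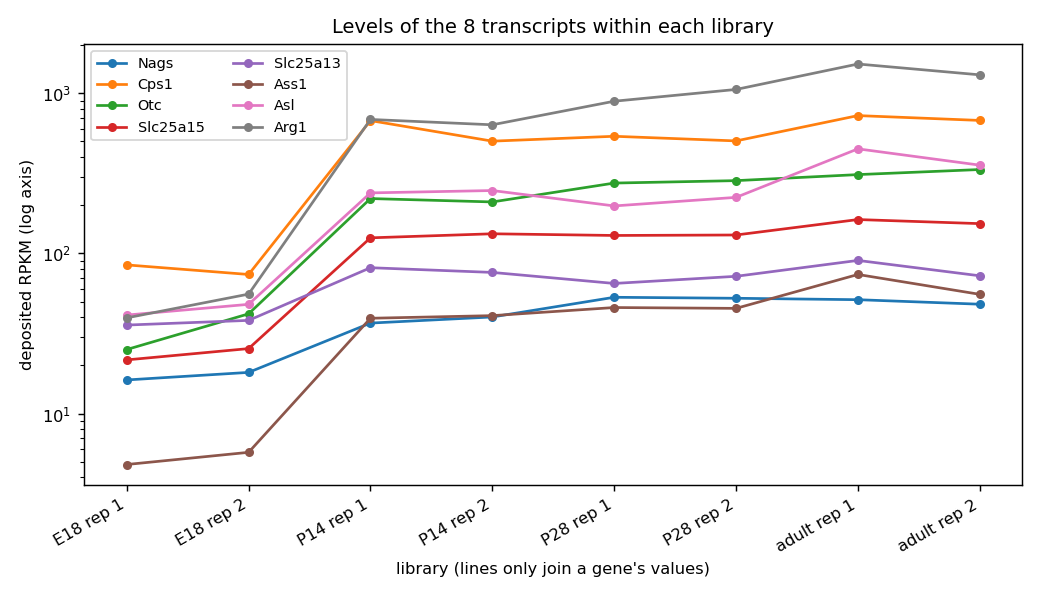
Deposited RPKM (log axis) of the 8 transcripts in each of the 8 libraries, where a line only joins the values of a gene. Cps1 is highest in both E18 libraries, at 84.7 and 73.8 RPKM, and Arg1 in all 6 later ones, at 635 to 1522 RPKM. Ass1 is lowest at E18, at 4.80 and 5.72 RPKM, but 39.0% of its 100-base windows also occur in Gm5424.

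Several members have a relative with the same or a similar activity. ARG2 is the mitochondrial arginase, and Arg2 had 0.359 to 0.638 RPKM in all libraries. The RPKM ratio of Arg1 to Arg2 was 130 ± 35.5 at E18 and then 1587 ± 139, 2380 ± 215 and 2468 ± 605 at the later stages in turn. Arg2 rose from E18 to P14 by 1.03 on the log2 scale (SE 0.24, adjusted p = 0.0034), with the opposite sign under hepatocyte marker scaling (-1.36). Its differences were 0.0058 to P28 (adjusted p = 0.99), the sign of which changed with the scaling, and 0.49 to adult (adjusted p = 0.2).

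Slc25a12 encodes aralar, the aspartate carrier best known from brain and muscle. It fell in the first interval by 0.27 (SE 0.11, adjusted p = 0.045) and from P14 to P28 by 0.55 (SE 0.11, adjusted p = 0.0033), while from P28 to adult the log2 fold change was -0.16 (adjusted p = 0.38). The RPKM ratio of Slc25a13 to Slc25a12 was 2.16 ± 0.0097 at E18 and then 10.04 ± 0.13, 13.1 ± 0.19 and 17.5 ± 5.2 at the later stages in turn. Slc25a29, a carrier of basic amino acids, had 1.22 to 2.17 RPKM. It rose by 1.25 to P14 (adjusted p = 0.00019), with -1.15 under hepatocyte marker scaling, fell by 0.46 to P28 (adjusted p = 0.061) and rose by 0.61 to adult (adjusted p = 0.054). Slc25a15 to Slc25a29 had an RPKM ratio of 17.2 ± 0.69 at E18 and then 71.7 ± 5.2, 102 ± 3.9 and 80.8 ± 8.4 at the later stages in turn. Slc25a2, the second ornithine carrier, was at 0.108 to 0.308 RPKM in all libraries. On the TMM scale it fell only from P14 to P28, by 1.04 (SE 0.34, adjusted p = 0.033). It had 0.59 to P14 (adjusted p = 0.11) and 0.56 to adult (adjusted p = 0.35) on that scale.

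Other genes of ammonia, glutamine, arginine and amino acid handling moved in both directions. Of 36 listed, all were tested, and from E18 to P14 24 rose, 8 fell and 4 did not pass, with a median log2 fold change of 1.51, where 38.2% of all genes rose and 39.3% fell. With library size alone the split was 20 and 10, where the median log2 fold change over all genes was -0.90. Under hepatocyte marker scaling it was 12 and 23, where 5.75% of all genes rose and 89.2% fell. On the TMM scale without E18 replicate 1 and P14 replicate 2 it was 24 and 7. The largest rises were those of Tat (10.81, SE 0.24), Sds (8.80, SE 0.26) and Gls2 (5.48, SE 0.29), which break down tyrosine, serine and glutamine. The largest falls were those of the urea transporter Slc14a1 (-6.05, SE 0.37), asparagine synthetase Asns (-5.18, SE 0.16) and the arginine transporter Slc7a1 (-4.24, SE 0.15). The erythroid and leukocyte markers also fell in this interval, 11 of 11 and 8 of 10, and their part in the falls was not tested.

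Genes that feed the mitochondrial steps were given in each interval. Car5a, a mitochondrial carbonic anhydrase that supplies bicarbonate, rose by 3.39 to P14 (SE 0.12, adjusted p = 2.6e-08) and by 0.90 to P28 (SE 0.11, adjusted p = 0.00021). To adult it was at -0.0025 (adjusted p = 1), with the sign changing between scalings. Glutaminase Gls2 stood at 4.35 and 8.28 RPKM at E18 and at 134 to 198 RPKM later. Its differences were -0.16 to P28 (adjusted p = 0.61) and 0.50 to adult (adjusted p = 0.21).

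Glud1, glutamate dehydrogenase, rose by 1.37 to P14 (SE 0.11, adjusted p = 5.5e-06), with -1.03 under hepatocyte marker scaling. It then fell by 0.33 to P28 (adjusted p = 0.042) and by 0.39 to adult (adjusted p = 0.053). Glul, glutamine synthetase, takes up ammonia in the hepatocytes around the central vein. It rose by 2.04 to P14 (SE 0.16, adjusted p = 3.1e-06), with -0.36 under hepatocyte marker scaling, and by 0.52 to P28 (adjusted p = 0.021), and was at 0.05 to adult (adjusted p = 0.86). The RPKM ratio of Cps1 to Glul was 3.27 ± 0.84 at E18 and then 10.5 ± 3.0, 6.60 ± 0.49 and 8.61 ± 2.0 at the later stages in turn. Oat, which links ornithine to glutamate, rose by 0.99 to P14 (adjusted p = 0.0009), with -1.40 under hepatocyte marker scaling, and by 1.498 to P28 (SE 0.18, adjusted p = 0.00026). From P28 to adult Oat had 0.47 (adjusted p = 0.12).

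Between P14 and P28, 13 of the 36 rose and 13 fell, where 25.2% of all genes rose and 28.6% fell. The largest rises were those of the alanine aminotransferases Gpt2 (3.40, SE 0.14) and Gpt (1.71, SE 0.12) and of proline dehydrogenase Prodh (1.52, SE 0.14). Slc14a1 (-3.14, SE 0.60), Asns (-2.29, SE 0.17) and Slc7a1 (-1.22, SE 0.16) fell most. Without E18 replicate 1 and P14 replicate 2 the split was 12 and 12. From P28 to adult 8 rose and 6 fell, where 7.94% and 13.2% of all genes did. These were led by Prodh (1.16, SE 0.13), the transporter Slc7a2 (1.05, SE 0.28) and Ddah1 (0.81, SE 0.18), and by Aldh18a1 of proline synthesis (-2.17, SE 0.16), Asns (-0.80, SE 0.22) and Slc7a1 (-0.74, SE 0.19). That count of 14 was 7 without P28 replicate 1 or adult replicate 1, 8 without P28 replicate 2, and 17 without E18 replicate 1 and P14 replicate 2.

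From E18 to adult 25 of the 36 rose and 10 fell, with a median of 1.80, where 39.5% of all genes rose and 43.8% fell. The split was 22 and 11 with library size alone, where the median log2 fold change over all genes was -0.95. Under hepatocyte marker scaling it was 15 and 19, where 7.92% of all genes rose and 87.3% fell. On the TMM scale without E18 replicate 1 and P14 replicate 2 it was 25 and 9. Tat (12.41, SE 0.25), Sds (9.39, SE 0.26) and Gpt (6.63, SE 0.16) rose most, and Slc14a1 (-9.90, SE 0.53), Asns (-8.27, SE 0.20) and Slc7a1 (-6.20, SE 0.18) fell most. Every one of these 6 kept its direction under each scaling. Of the relatives named above, Gls2 (5.82), Car5a (4.29), Oat (2.96) and Glul (2.62) had log2 fold changes above 0 under every scaling. Arg2 (1.53) and Slc25a29 (1.40) turned negative under hepatocyte marker scaling, and Glud1 (0.66) did so with library size alone as well. Slc25a12 fell by 0.98, and Slc25a2 had 0.11 (adjusted p = 0.78), both on the TMM scale.

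**Figure D5:**
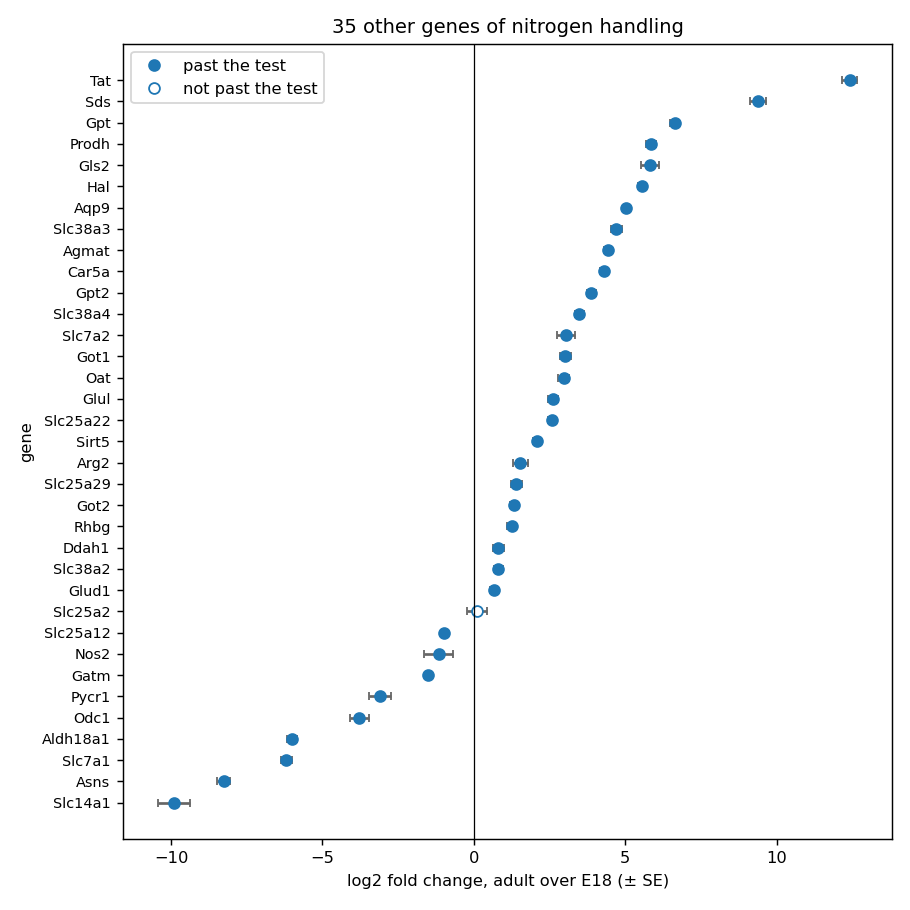
Log2 fold change from E18 to adult on the TMM scale (bars, 1 SE) of 35 of the 36 genes of nitrogen handling outside the cycle. Of the 35 drawn, 25 rose and 9 fell, from Tat at 12.41 to Slc14a1 at -9.90, and Slc25a2, the open circle at 0.11, did not pass the test. Under hepatocyte marker scaling the split over the 36 is 15 and 19, where 7.92% of all genes rose and 87.3% fell.

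Of 15 genes listed as regulators of urea cycle transcription, some encode transcription factors, such as CEBPA and HNF4A, and Gcgr and Insr encode hormone receptors. Between E18 and P14, 14 of the 15 rose and 1, Crebbp, fell, where 38.2% of all genes rose and 39.3% fell. The split was 10 and 1 with library size alone, where the median log2 fold change over all genes was -0.90. Under hepatocyte marker scaling it was 3 and 8, where 5.75% of all genes rose and 89.2% fell. On the TMM scale without E18 replicate 1 and P14 replicate 2 it was 13 and 0, and the fall of Crebbp no longer passed. From E18 to adult 14 rose and 0 fell, where 39.5% of all genes rose and 43.8% fell. With library size alone the split was 13 and 1, where the median over all genes was -0.95. Under hepatocyte marker scaling it was 7 and 6, where 7.92% of all genes rose and 87.3% fell. On the TMM scale without those 2 libraries it was 15 and 0. The largest of these rises were those of the glucagon receptor Gcgr (4.44, SE 0.11), Onecut1 (4.12, SE 0.88) and Klf15 (3.92, SE 0.13), and these 3 stayed positive under every scaling. Onecut1 duplicates were far apart, at 17.7 and 2.03 RPKM at P28 and 12.7 and 26.8 RPKM in adult. In the intervals between, 7 regulators rose and 1 fell from P14 to P28, where 25.2% and 28.6% of all genes did, and 4 rose and 0 fell from P28 to adult, where 7.94% and 13.2% did. Without those 2 libraries these splits were 6 and 1 in both intervals.

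Genes of both zones of the liver lobule rose on the TMM scale, with other splits under hepatocyte marker scaling. From E18 to adult 10 of 10 pericentral genes rose, led by Cyp1a2 (13.49, SE 0.26) and Cyp2e1 (12.73, SE 0.24), and 8 of 10 periportal genes outside the cycle rose and 1 fell, led by Pck1 (12.66, SE 0.40) and Cyp2f2 (11.79, SE 0.44), where 39.5% of all genes rose and 43.8% fell. Under hepatocyte marker scaling the pericentral split was 4 and 5, and the periportal split 6 and 3. On that scale 7.92% of all genes rose and 87.3% fell. The median log2 fold change on the TMM scale was 2.10 for the pericentral and 4.52 for the periportal list, beside 4.03 for the members. Glul, Oat and Rhbg of the pericentral list and Gls2, Hal and Sds of the periportal list are also among the 36 above, and the difference between the lists was not tested.

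The members were similar in pattern but not in size of change. Likeness was measured over the 8 libraries as the root mean square difference of log2 CPM, each gene centred on its own mean, and is a description. The closest members were Otc and Ass1 at 0.219, and the farthest were Arg1 and Slc25a13 at 1.49. Cps1 and Slc25a15 stood at 0.239, and Nags and Slc25a13, the members of smallest change to P14, at 0.306. The points share the same libraries and the large step from E18 to P14.

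Among all genes with a mean of at least 10 CPM, the pattern nearest to Nags was that of Nqo2 at 0.0485, followed by Hdac11 and Lipc. Gulo was nearest to Cps1 at 0.149, before Pm20d2 and Nr1h4. Otc was nearest to Upb1 at 0.0926, then 5033403H07Rik and Inca1. Agmat, which encodes agmatinase, was nearest to Ass1 at 0.155, followed by Etnk2 and Clu. Asl was nearest to Fdx1 at 0.184, then Ttc36 and Klf15. Arg1 was nearest to Aldh1l1 at 0.170, then Pbld2 and Fitm1. Fah, the last enzyme of tyrosine breakdown, was nearest to Slc25a15 at 0.0675, followed by Fxyd1 and Ttc36. Ppa1 was nearest to Slc25a13 at 0.0906, then Adi1 and Cbr4.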

How the data were processed

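Poly(A)-selected RNA of 8 mouse liver samples was sequenced as paired-end reads of 100 bases. The authors aligned the reads by a published method (mm9 in the submitters' processing notes; the aligner and the counting tool are not given in the sources used here) and deposited the read counts of 22059 genes by symbol. The authors also deposited RPKM values, each equal to its count divided by 1 length per gene and 1 total per sample. The methods name RNeasy for RNA isolation and the labels Trizol.

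Counts were filtered with filterByExpr (17081 genes left), scaled by TMM and fitted in edgeR (version 4.0.16) with glmQLFit and 1 coefficient per stage over all 8 samples. Stages were compared with glmQLFTest, and p-values were adjusted by Benjamini-Hochberg over all genes tested. A gene was called at a false discovery rate below 0.1, and calls over 3-fold were counted beside these. The SE is the log2 fold change divided by the square root of F. The p-values measure only the spread between these samples, which may be technical. An exact permutation test of 2 against 2 cannot go below 0.33, so none was used.

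Alternatives were DESeq2 (version 1.42.0), limma (version 3.58.1) on log2(RPKM + 0.1) and log2(RPKM + 1), other filters and scalings, fits to the 2 stages alone, a block on replicate number, and each sample left out. Leaving out 2 libraries for their Y-linked reads was added after the data were seen. The scripts were tested on simulated data in which few genes changed, so the scaling between unlike libraries was not tested. A recovery limit first set for both count tools was kept for edgeR only, after DESeq2 fell short of it. Duplicates of every stage differed by more than sampling noise.

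The 8 members and the gene lists were chosen with earlier results of these data known. Named genes were all members, related genes set beside them, in each comparison the 3 largest rises and falls among the 36 nitrogen genes, the 3 regulators and 2 genes of each zone with the largest change from E18 to adult, and the 3 nearest patterns of each member. The values of 1 of the 36 are not reported here, and it is counted in the totals over them. Crebbp was named after its values were seen. Coordinates are from GENCODE M21 and RefSeq on GRCm38, and no coordinate of the files' build was used. Ahsp and Tf were not matched. R (version 4.3.3) and Python (version 3.11.15) were used.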

Additional observations from a re-analysis of the deposited data

How the results depend on the processing

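Of 480 fits of single members under other settings, 451 kept both direction and side of the threshold, 12 lost the call, 10 gained it and 7 reversed. All 8 members rose from E18 to P14 and from E18 to adult under every setting but hepatocyte marker scaling, where the log2 fold change of Nags was -0.38 and -0.0027 and that of Slc25a13 -0.45 and -0.40, in that order, and Nags no longer passed from E18 to adult. From P14 to P28, differences that never passed reversed for Cps1 (-0.33 to 0.079 with either P14 library left out) and Slc25a15 (-0.0035 under hepatocyte marker scaling, -0.0051 to 0.092 with either P14 library left out; the negative value was without replicate 1). The count of 2 members in that interval was 4 with only the 2 stages compared and 0 over 3-fold, and 1 to 2 with 1 library left out. The count of 3 from P28 to adult was 1 at a false discovery rate of 0.05 and 0 over 3-fold, and 1 to 2 with 1 library left out. Of the nitrogen genes, 26 passed from P14 to P28 but 4 over 3-fold. From P28 to adult 14 passed, 1 of them over 3-fold, and 7 to 11 with 1 library left out. The causes were not tested, beyond the fewer samples in the fits that left out libraries. Replicate numbers are no known pairing. The correlation of same-numbered samples averaged -0.096 over 6 pairs of stages, and ran from -0.413 (P28 and adult) to 0.155 (E18 and P28). With the replicate number as a block the member counts were 8, 2, 3 and 8, with Cps1 gained (adjusted p = 0.09) and Arg1 lost (adjusted p = 0.11) from P28 to adult, and the nitrogen counts 25 from P14 to P28 and 14 from P28 to adult. With 2 samples a stage, the smallest change of a member called after P14 was 0.49 and the largest of a member not called was 0.42 on the log2 scale.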
